A study of Sorghum bicolor with 16 samples.

Results

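SbGBSSI (Sobic.010G022600) encodes granule-bound starch synthase I of sorghum and is the gene that carries the stop-gained allele of the waxy line studied here. It was chosen by its identifier, as 1 gene of the 34129 in the expression table, and was followed across all 16 libraries. Granule-bound starch synthase I sits inside the starch granule in the amyloplast and elongates the long, nearly unbranched chains of amylose from ADP-glucose. Soluble starch synthases, branching enzymes and debranching enzymes build amylopectin, the branched polymer, from the same substrate. Cereal grains that lack working granule-bound starch synthase I in the endosperm are called waxy, because their starch holds little or no amylose.

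The libraries were made from endosperm of developing seeds of BTx623 (WT), the line of the sorghum reference genome, and of 15M2-1184 (wxe), a line obtained from BTx623 with the mutagen ethyl methane sulfonate and labelled waxy mutant. Both lines were sampled at 6, 11, 16 and 21 DPA (days post anthesis), with 2 replicates per group, which gave 8 groups. Each replicate pooled seeds of 3 panicles, and the lines grew in adjacent field rows. Only plants homozygous for the allele were used for wxe, and this line carries other induced mutations, so every difference reported is one between lines. The allele changes a single base in the last exon and creates a premature stop codon. A level per gene does not show that base, so the values do not check which allele a library carried. The paper reports that the sequence reads showed the mutation in all wxe samples.

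The position of the allele falls in 1 protein-coding RefSeq gene, LOC8068390, on chromosome 10 from base 1860943 to 1865281 of the assembly Sorghum_bicolor_NCBIv3, a span of 4339 bases. The deposited values are FPKM, a count of sequenced fragments divided by transcript length and by a size factor of the library, which is not specified. They summed to between 493357 and 1001504 per library. The 25 most abundant genes, which do not include SbGBSSI, took 1.91% to 4.53% of the sum at 6 DPA and 40.3% to 54.9% later. A share of the sum is therefore relative to a pool whose makeup changed with age. In WT, the median log2 change of all tested genes from 6 to 11 DPA was -0.02 as deposited. It was -0.84 with FPKM rescaled to the same sum per library, so the deposited scale did not follow the sum. SbGBSSI itself ranked 26 by its mean over the 16 libraries.

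SbGBSSI transcript rose with age in both genotypes and its mean was lower in wxe than in WT at every age, a difference that passed the test at 6, 11 and 21 DPA. The 2 WT libraries of 6 DPA held 847 and 752 FPKM, followed by 2657 and 2617 FPKM in those of 11 DPA, 6454 and 6133 in those of 16 DPA, and 8807 and 8599 in those of 21 DPA. The wxe libraries of the same ages held 331 and 329, then 1678 and 1633, then 3805 and 3917, and finally 3920 and 4888 FPKM. The genotypes did not overlap at any age, and the libraries of successive ages did not overlap within either genotype. The closest approach was in wxe, where the lower library of 21 DPA lay next to the higher library of 16 DPA. The transcript with the premature stop was therefore still among the abundant ones of the wxe endosperm. In bulk tissue, fewer cells of a type and less RNA per cell cannot be told apart.

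**Figure D1:**
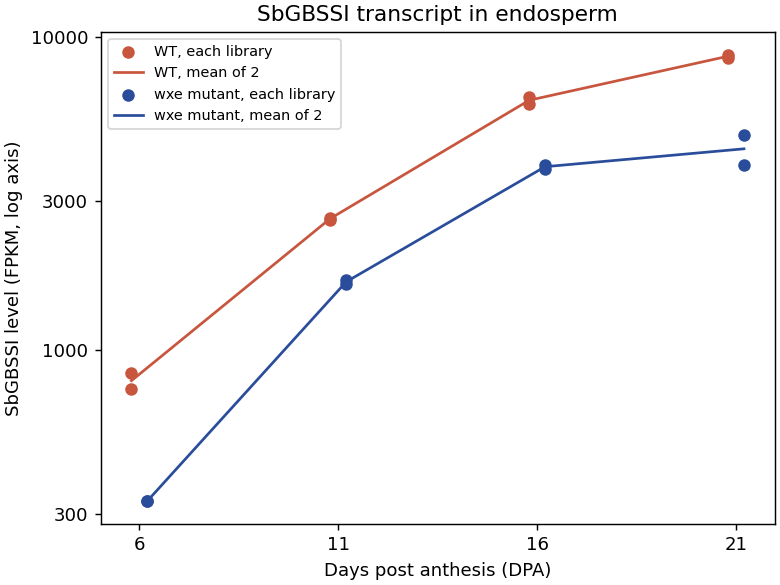
SbGBSSI level (FPKM, log axis) against age in DPA, with 1 point per library and a line through the mean of the 2 libraries of each genotype. All WT points lie above all wxe points of the same age, and the wxe line flattens between 3861 FPKM at 16 DPA and 4404 FPKM at 21 DPA.

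The first question was how the transcript changed as the seed filled. In WT, mean SbGBSSI rose from 6 to 11 DPA by 1.72 on the log2(FPKM + 1) scale (95% interval 1.38 to 2.06, adjusted p = 1.73e-06 by limma, Benjamini-Hochberg), where 19.6% of all tested genes were called higher. Calls required both an adjusted p below 0.05 and a log2 change of 0.58 or more in either direction. Differences of the wxe minus WT change between ages were called by the adjusted p alone. From 11 to 16 DPA it rose by a further 1.25 (0.91 to 1.60, limma adjusted p = 3.92e-05), against 14.1% of genes called higher. The last step, from 16 to 21 DPA, was 0.47 (0.13 to 0.81, limma adjusted p = 0.0344), which is under the fold threshold, so it was not called, while 11.3% of genes were called higher. It was smaller with quantile normalization (0.21, limma adjusted p = 0.332) and with FPKM rescaled to the same sum per library (0.28, limma adjusted p = 0.163).

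In wxe the first step was 2.32 (1.98 to 2.66, limma adjusted p = 1.25e-07), with 19.1% of genes called higher. The second was 1.22 (0.88 to 1.56, limma adjusted p = 5.31e-05), with 14.2% called higher. The third was 0.18 (-0.16 to 0.52, limma adjusted p = 0.396), with 10.4% called higher, and the 2 wxe libraries at 21 DPA differed from each other by more than this step. Without the lower of these 2 libraries the step was 0.34, and without the higher it was 0.02. Its sign turned under 2 other scalings, to -0.15 with quantile normalization and -0.038 with FPKM rescaled to the same sum per library. The last step was thus called in neither genotype, and the test of the difference between them is given with the ratios.

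Over the whole period SbGBSSI rose by 3.44 in WT (3.10 to 3.79, limma adjusted p = 1.49e-09) and by 3.72 in wxe (3.38 to 4.07, limma adjusted p = 6.23e-10). In WT 27.1% of tested genes were called higher between these ages, and in wxe 27.5%. A larger rise was measured for 190 of 16945 genes in WT (1.12%) and for 156 of 17646 in wxe (0.884%). The ratio of mean FPKM between 21 and 6 DPA was 10.9 in WT and 13.3 in wxe. The 2 whole rises differed by 0.28 (-0.20 to 0.76, limma adjusted p = 0.383 for the difference itself, by which 25.4% of genes differed). An exact two-sided permutation test of the trend with age, over every assignment of the 8 libraries of a genotype to the ages, gave p = 0.000794 in WT and the same in wxe, the smallest value the assignments can give.

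On the linear scale the gain per day was uneven. In WT it was 367 FPKM per day from 6 to 11 DPA, 731 from 11 to 16 DPA and 482 from 16 to 21 DPA. In wxe it was 265, 441 and 109 FPKM per day over the same intervals. The last of these values rests on the 2 wxe libraries of 21 DPA, and was 205 FPKM per day without replicate 1 and 11.7 without replicate 2. Both genotypes gained most between 11 and 16 DPA. By 16 DPA the WT mean stood at 72.3% of its own level at 21 DPA and the wxe mean at 87.7%. Read on the WT curve by log2-linear interpolation, the wxe mean at 11 DPA matched WT at 9.05 DPA, the wxe mean at 16 DPA matched WT at 13.2 DPA, and the wxe mean at 21 DPA matched WT at 13.9 DPA (14.5 without replicate 1 and 13.3 without replicate 2). At 6 DPA wxe lay below every WT value. These ages describe 1 gene only.

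The second question was how wxe compared with WT at each age. At 6 DPA the wxe mean was 41.3% of the WT mean, a log2 change of -1.27 (SE 0.16, limma adjusted p = 1.10e-04), where 5.15% of tested genes were called lower and 106 of 16967 had a lower value. At 11 DPA it was 62.8% (-0.67, limma adjusted p = 0.00691), where 12.1% of genes were called lower and 1780 of 15808 (11.3%) had a lower value. Rescaling FPKM to the same sum per library reduced this value to -0.43 (limma adjusted p = 0.0410), which is under the fold threshold, and moved the median of all genes by 0.21, so that SbGBSSI lay 0.64 below that median. Quantile normalization gave -0.35 (limma adjusted p = 0.102). The change stayed at -0.67 when low genes were kept in the fit, with a limma adjusted p of 0.0526.

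At 16 DPA the wxe mean was 61.4% of WT, a log2 change of -0.70 whose limma adjusted p was 0.0526, so SbGBSSI was not called although the libraries did not overlap. The paper used another test, Cuffdiff, with the same thresholds and reports the gene as differentially expressed at every age, 16 DPA included. By limma 0.314% of genes were called lower at 16 DPA, and 109 of 14990 genes had a lower value than SbGBSSI (0.727%). SbGBSSI was called at 16 DPA when the minimum mean was raised to 5 FPKM (limma adjusted p = 0.0355), with FPKM rescaled to the same sum per library (0.0433) and with no variance trend (0.0134). It was also called without wxe replicate 1 or 2 of 21 DPA. It was not called with quantile normalization (-0.42, limma adjusted p = 0.207) or when low genes were kept in the fit (0.208). At 21 DPA the wxe mean was 50.6% of WT (-0.99, limma adjusted p = 0.00289), with 2.93% of genes called lower and 122 of 14966 below SbGBSSI (0.815%). The gap between the means widened over the 4 ages, from 469.7 FPKM to 981, 2432 and 4299 FPKM.

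The closest values, the highest wxe library against the lowest WT library, still gave 44.0%, 64.1%, 63.9% and 56.8% at the successive ages. Averaged over the ages, the log2 change was -0.91 (95% interval -1.08 to -0.74, limma adjusted p = 4.24e-05), or 53.2% of WT (47.3% to 59.9%). By this average 0.785% of genes were called lower, and 25 of 18349 genes (0.136%) lay below SbGBSSI. An exact two-sided permutation test that exchanged genotype labels within ages gave p = 0.00154, the smallest it can give. At a single age, 2 libraries against 2 cannot give an exact p under 0.333, so calls at single ages depend on a spread that limma pooled over groups and genes. The p-values measure the spread between pools of panicles from 1 field.

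**Figure D2:**
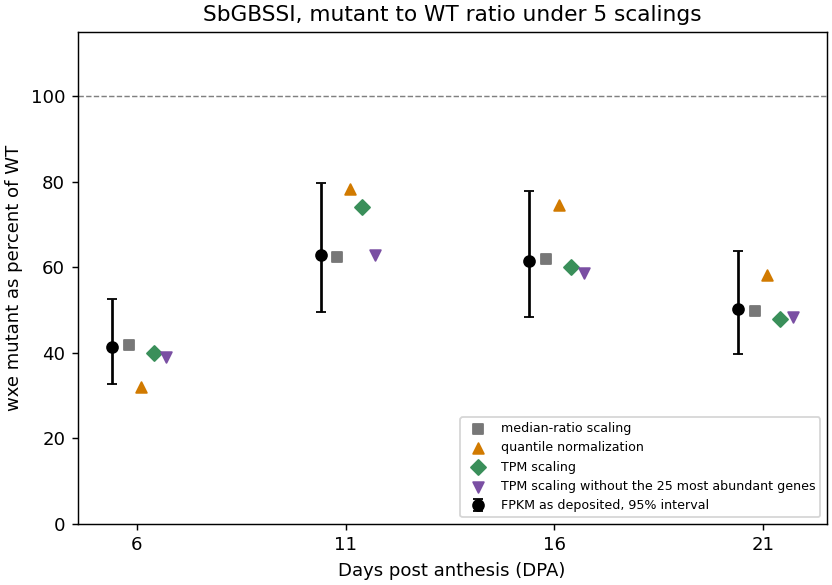
SbGBSSI level of wxe as a percent of WT at each age (DPA); black points with bars are the limma estimate from FPKM as deposited and its 95% interval, and coloured points are the estimates under 4 other scalings. The black points are at 41.4%, 62.8%, 61.4% and 50.3% at 6, 11, 16 and 21 DPA, and every interval and point lies below the dashed line at 100%.

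Whether the ratio itself changed with age was tested on the difference of the log2 changes. From 6 to 11 DPA the deficit of wxe became smaller by 0.60 (0.12 to 1.08, limma adjusted p = 0.0468 for the difference itself, by which 41.6% of genes differed). This call was lost when any 1 of 14 libraries was left out and was kept only without wxe replicate 1 (limma adjusted p = 0.0359) or 2 (0.0349) of 21 DPA, with values from 0.51 to 0.69. The difference was larger with FPKM rescaled to the same sum per library (0.90) and with quantile normalization (1.29). From 11 to 16 DPA the difference was -0.03 (-0.52 to 0.45, limma adjusted p = 0.934), where 16.4% of genes differed. From 16 to 21 DPA it was -0.29 (-0.77 to 0.20, limma adjusted p = 0.715), where 0.128% of genes differed. These intervals are wide enough to hold changes of the ratio in either direction.

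The order of the 8 groups from low to high was wxe 6 DPA, WT 6 DPA, wxe 11 DPA, WT 11 DPA, wxe 16 DPA, wxe 21 DPA, WT 16 DPA and WT 21 DPA. Because this order was read from the data, the comparisons of neighbours describe spread only. The level of wxe at 11 DPA was 1.05 above that of WT at 6 DPA on the log2 scale (limma adjusted p = 1.70e-04). The level of wxe at 16 DPA was 0.55 above WT at 11 DPA (limma adjusted p = 0.0115), and that of WT at 16 DPA was 0.52 above wxe at 21 DPA (limma adjusted p = 0.0204), both under the fold threshold. Among all neighbours in the order, the pair whose adjusted p missed 0.05 was wxe at 16 and 21 DPA.

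The third question was how prominent the transcript was. In WT, SbGBSSI ranked 59 and 89 among all genes in the libraries of 6 DPA, then 33 and 34, then 18 and 17, and 15 in both libraries of 21 DPA. In wxe it ranked 264 and 307, then 40 and 40, 23 and 22, and 25 and 24. WT kept climbing to 21 DPA, whereas the wxe ranks at 21 DPA were just behind those at 16 DPA. By group mean the genes directly above and below it were Sobic.001G295200 (803 FPKM) and Sobic.006G257900 (790.5 FPKM) in WT at 6 DPA, and Sobic.009G186400 (11310 FPKM) and Sobic.009G021300 (7978 FPKM) in WT at 21 DPA. At 11 and 16 DPA they were Sobic.003G326300 (2671 FPKM) and Sobic.002G089400 (2591 FPKM), then Sobic.001G488000 (6314 FPKM) and Sobic.005G193100 (6047 FPKM). In wxe they were Sobic.001G107800 (331 FPKM) and Sobic.007G138700 (330.1 FPKM) at 6 DPA, Sobic.005G074400 (1675 FPKM) and Sobic.003G415300 (1617 FPKM) at 11 DPA, Sobic.009G021300 (4014 FPKM) and Sobic.002G078800 (3345 FPKM) at 16 DPA, and Sobic.002G078800 (4590 FPKM) and Sobic.001G488000 (4127 FPKM) at 21 DPA. Several identifiers therefore recur, with SbGBSSI above Sobic.009G021300 in WT at 21 DPA and below it in wxe at 16 DPA.

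As a share of the summed FPKM, SbGBSSI took 0.172% and 0.143% in the WT libraries of 6 DPA, then 0.280% and 0.261%, then 0.765% and 0.747%, and 0.945% and 0.897% in those of 21 DPA. In wxe the shares were 0.0652% and 0.0598%, then 0.215% and 0.187%, 0.429% and 0.479%, and 0.395% and 0.494%. The genotypes did not overlap at any age. The wxe shares of 16 and 21 DPA overlapped each other. With the 25 most abundant genes left out of the sum, the mean share at 21 DPA was 1.95% in WT and 0.947% in wxe, and wxe stood at 38.8%, 62.9%, 58.7% and 48.4% of WT at the successive ages.

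**Figure D3:**
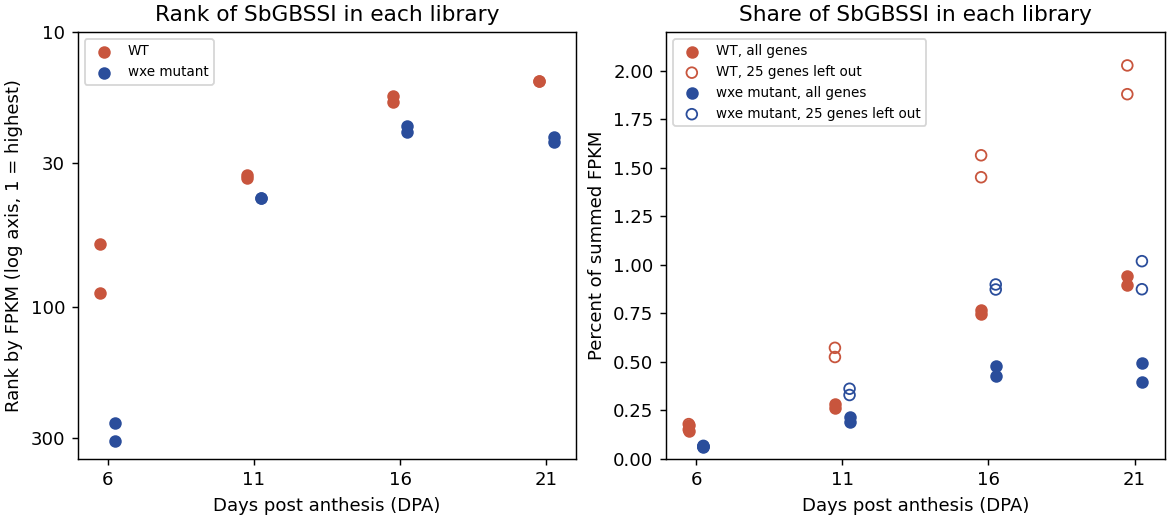
Rank of SbGBSSI among all genes (left, log axis, 1 is highest) and its percent of the summed FPKM (right) in each library against age in DPA, with open points for the share once the 25 most abundant genes are left out of the sum. WT reached rank 15 and shares of 0.897% and 0.945% at 21 DPA, and wxe ranks 24 and 25 and shares of 0.395% and 0.494%.

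The other genes of starch and sucrose metabolism that the study's text names by identifier give the setting for SbGBSSI. They are 4 genes of amylopectin synthesis, 3 of ADP-glucose supply and 5 of sucrose use, and as the study selected them on these same libraries their counts are no independent evidence of a direction. At 6 DPA limma called 7 of these 12 genes lower in wxe and 1 higher, where 5.15% of all tested genes were called lower and 14.4% higher, with a median log2 change of -0.61 against 0.01 over all tested genes. At 11 DPA 1 of 11 tested genes was lower and 2 were higher (median 0.38), with 12.1% of all genes called lower and 5.78% higher, so the share called lower was near the background. At 16 DPA 1 of 10 was higher (median 0.28), beside 0.674% of all genes, and at 21 DPA 3 of 10 (median 0.53), beside 3.58%. At 16 and 21 DPA limma called 0 of them lower, beside 0.314% and 2.93% of all genes, and 0 were lower at an unadjusted p below 0.05. With 10 genes, such shares leave a count of 0 near the background.

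The change of SbGBSSI was below that of all 12 genes at 6 DPA, of 10 of 11 at 11 DPA and of all 10 tested at both later ages. At 6 DPA the genes called lower with it were SbSBEIIb (Sobic.004G163700, a branching enzyme, -0.95), the soluble starch synthases SbSSIIIa (Sobic.007G068200, -0.93) and SbSSIIC (Sobic.001G239500, -0.58), SbAGPLS1 (Sobic.003G230500, a large subunit of the ADP-glucose pyrophosphorylase that makes ADP-glucose, -0.95), Sobic.002G160400 of the same step (-0.71) and the sucrose synthases SS2 (Sobic.001G344500, -0.74) and SS3 (Sobic.001G378300, -0.64). For SbSSIIIa the wxe libraries of 6 DPA held 69.6 and 27.4 FPKM, against 84.2 and 84.7 in WT, so the size of its fall rests largely on wxe replicate 2. The gene called higher was an invertase, which splits sucrose (Sobic.004G004800, 0.95). SbSSIIIb (Sobic.006G221000, 0.51), SbAGPLS2 (Sobic.009G245000, 0.15), Sobic.002G291200 (a UTP-glucose-1-phosphate uridylyltransferase, -0.54) and the sucrose transporter Sobic.001G488700 (-0.44) were not called.

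At the later ages the members that passed the test moved the other way from SbGBSSI, with 1 exception. SS2 (0.68) and SS3 (0.66) were higher at 11 DPA, and the exception, the sucrose transporter Sobic.001G488700, was lower (-0.84). Sobic.002G160400 was higher at 16 DPA (0.80) and at 21 DPA (0.79), when SbAGPLS2 (0.72) and SS2 (1.07) were also higher. For SbAGPLS1 the WT libraries held 562 and 532 FPKM at 6 DPA and 990 and 962 at 21 DPA, and the wxe libraries 327 and 245, then 1033 and 989. The genotypes were apart for SbAGPLS1 at 6 DPA and overlapped at 21 DPA, where SbGBSSI was still apart.

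**Figure D4:**
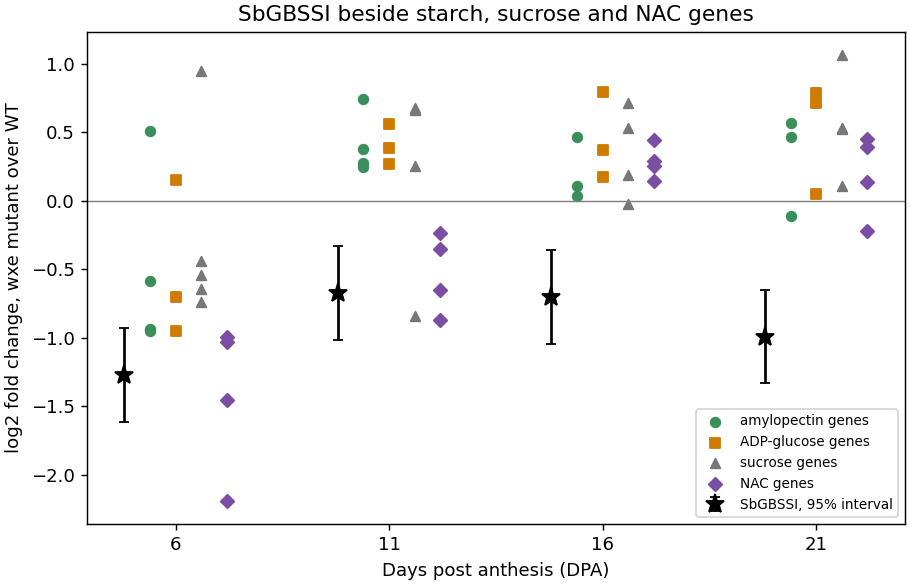
Log2 fold change of wxe over WT at each age (DPA), with a star and 95% interval for SbGBSSI and 1 point per gene for the amylopectin, ADP-glucose, sucrose and NAC genes that could be tested. SbGBSSI has a negative value at every age (-1.27, -0.67, -0.70 and -0.99), while the median of the starch and sucrose genes goes from -0.61 at 6 DPA to 0.53 at 21 DPA.

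A ratio of FPKM values within a library does not depend on how that library was scaled. The FPKM of SbGBSSI divided by that of SbSBEIIb was 1.52 and 1.43 in the WT libraries of 6 DPA, then 4.40 and 3.95, then 7.92 and 8.11, and 17.3 and 18.6 in those of 21 DPA. In wxe it was 1.06 and 1.32, then 1.83 and 2.22, 4.30 and 4.86, and 5.88 and 7.27. The ratio rose with age in both genotypes and was lower in wxe at every age without overlap. SbGBSSI was also set against the mean log2 level of the 4 amylopectin genes, a comparison chosen after seeing the data. Its wxe minus WT values were then -0.78, -1.08, -0.93 and -1.23 at the successive ages. Their average of -1.01 had an exact two-sided permutation p of 0.00154, the smallest the assignments can give. SbGBSSI alone already gave this smallest p, and the study selected the reference genes on these same libraries. The p of the comparison is therefore no further evidence. A ratio to other genes shows unequal change of the genes in it and not which of them changed. The paper reports that SbSBEIIb itself carries a homozygous amino acid change in wxe. It is therefore not an unaltered reference, alone or among the amylopectin genes.

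**Figure D5:**
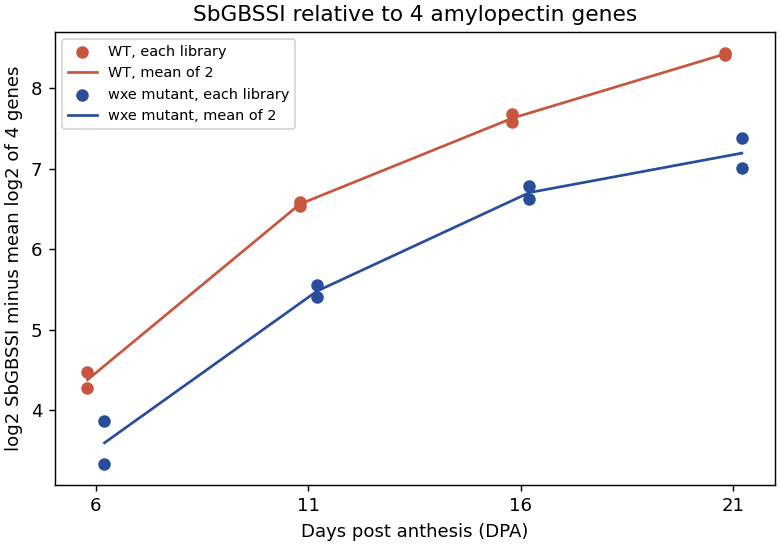
Log2 level of SbGBSSI minus the mean log2 level of the 4 amylopectin genes in each library, against age in DPA, with a line through the mean of 2. Group means rise from 4.38 to 8.43 in WT and from 3.59 to 7.20 in wxe, and no wxe library reaches a WT library of the same age.

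Transcription factors of the NAC family are known in maize and rice as regulators of storage starch and protein genes. The 4 NAC genes that the study's text connects with the waxy gene were all called lower in wxe at 6 DPA, with a median of -1.24, beside 5.15% of all genes called lower, and 2 of 4 were lower at 11 DPA, beside 12.1%. Sobic.005G056300 (-2.20) and Sobic.003G105600 (-1.45) had the largest falls at 6 DPA, and Sobic.003G105600 (-0.87) and Sobic.009G086800 (-0.65) were lower at 11 DPA. At 16 and 21 DPA limma called 0 of the 4 in either direction, and 2 at each age were higher at an unadjusted p below 0.05. For Sobic.003G105600 the WT libraries held 29.8 and 34.5 FPKM at 6 DPA and 567 and 525 at 21 DPA, and the wxe libraries 13.8 and 8.86, then 478 and 458. All 4 were called higher at 21 than at 6 DPA in both genotypes, as SbGBSSI was, beside 27.1% of all genes in WT and 27.5% in wxe. This list too was chosen by the study on these libraries, where it reports the 4 genes as lower in wxe at 6 DPA. Their count at that age is therefore no independent evidence of a direction.

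Likeness to SbGBSSI was measured as Pearson's r of log2(FPKM + 1), given as a description, since the libraries share age and genotype. Over the 8 WT libraries, 1048 of 17446 genes had r above 0.95 and 114 had r above 0.99, led by Sobic.004G328000 (0.999), Sobic.005G224500 (0.999), Sobic.004G256800 (0.998), Sobic.004G259000 (0.998) and Sobic.002G270700 (0.997). Over all 16 libraries, which differ in genotype as well as age, 186 of 18348 genes had r above 0.95 and 1 had r above 0.99. That gene, Sobic.005G082700, rose from 2.07 to 16.3 FPKM in WT and from 0.794 to 11.1 FPKM in wxe between 6 and 21 DPA. The next were Sobic.004G228800 (0.988), Sobic.003G156100 (0.986), Sobic.001G410000 (0.986) and Sobic.003G421800 (0.985). A high r did not require a lower level in wxe at every age. Sobic.001G410000 had means of 22.3 FPKM in WT and 22.4 FPKM in wxe at 11 DPA. Among the starch and NAC genes, r over the 16 libraries was 0.946 for Sobic.003G105600, 0.865 for SbAGPLS1 and 0.603 for SbSBEIIb. It was negative for 8 of the 12 starch and sucrose genes, down to -0.95 for SbAGPLS2 and SbSSIIIb and -0.92 for Sobic.004G004800.

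Of the 10 genes nearest to SbGBSSI on chromosome 10 in the order of their identifiers, 4 were listed at 0 in all 16 libraries. At 6 DPA 2 could be tested, Sobic.010G022300 (-0.45, limma adjusted p = 0.0191, under the fold threshold) and Sobic.010G022900 (-0.99, limma adjusted p = 0.170). The changes of Sobic.010G022300 at the later ages were -0.01, -0.01 and 0.13, where those of SbGBSSI were -0.67, -0.70 and -0.99. Those of Sobic.010G022900 were 0.02 at 11 DPA and 0.18 at 16 DPA. Those of Sobic.010G022200 were 0.05 at 16 DPA and -0.15 at 21 DPA, and no neighbour was called.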

How the data were processed

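RNA of endosperm was sequenced from WT and wxe at 4 ages with 2 replicates per group. The authors deposited FPKM for 34129 genes in 16 libraries. Per the labels the reads passed through FastQC, Trimmomatic, STAR and Cufflinks, whose versions, annotation release and treatment of multi-mapping reads are not given in the sources used here. The table holds no read counts, so absolute depth and counting error are unknown. The most common ratio between libraries of the values of low genes, taken as that of equal fragment numbers, gives an estimate of the size factor of each library. Relative to WT replicate 1 of 6 DPA it was 0.913 to 1.02 at 6 DPA, 0.502 to 0.627 at 11 DPA, 0.437 to 0.504 at 16 DPA and 0.399 to 0.440 at 21 DPA. This factor equals relative depth only if the values were divided by mapped fragments, which is not known, so relative depth is unknown too.

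A pseudocount of 1 was added before taking log2, so changes of low genes are understated, and 18349 genes with a mean above 1 FPKM in any group were fitted with limma 3.58.1 in R 4.3.3, in a joint model of all 8 groups with trended variances (8 residual degrees of freedom). Each contrast was tested two-sided, with Benjamini-Hochberg adjustment over genes with a mean above 1 FPKM in the groups compared. Cuffdiff was not run. Shares, ranks, correlations, permutation tests and figures were made with Python 3.11.15. The procedure was tested on simulated data, with changes placed at 6 DPA only and larger than any wxe minus WT change of SbGBSSI. That test does not cover calls near the thresholds.

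Named were SbGBSSI, the starch, sucrose and NAC genes that the study's text gives by identifier, genes next to SbGBSSI in rank, the 5 most alike over 8 WT and over 16 libraries, and the 5 on each side on the chromosome. The gene and the lists were chosen with earlier results of these data known. Of the 34129 identifiers, 0 matched the reference table, so lists by product name and cell type markers were not used. The alternatives were another pseudocount, other low-value filters, a replicate block, 4 other scalings, no variance trend, each age fitted alone, and each library left out in turn.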

Additional observations from a re-analysis of the deposited data

Results flagged for a closer look

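The deficit of SbGBSSI in wxe differed between 6 and 11 DPA by limma's test of the difference. The log2 change was -1.27 at 6 DPA and -0.67 at 11 DPA, a difference of 0.60 (95% interval 0.12 to 1.08, limma adjusted p = 0.0468, Benjamini-Hochberg). Both wxe libraries were below both WT libraries at either age. Over the settings other than leaving out a library, the adjusted p ran from 7.84e-04 to 0.165. The same test called 41.6% of all genes, and the part that age or the makeup of the libraries had in the result was not tested.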

How the results depend on the processing

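The average deficit of SbGBSSI in wxe and its deficits at 6 and 21 DPA kept their direction and their calls under every setting that gave a test and without any 1 library, as did the rises from 6 to 11 DPA, from 11 to 16 DPA and over the whole period in both genotypes. The average ran from -0.96 to -0.80 over the settings and from -0.95 to -0.87 with 1 library left out. At 11 DPA the deficit was no longer called with no filter (-0.67), quantile normalization (-0.35) or a common sum per library, termed TPM (-0.43). At 16 DPA it became called with a minimum mean of 5 FPKM or no variance trend (-0.70 in both), TPM (-0.74) and TPM without the 25 most abundant genes (-0.77), stayed uncalled with no filter (-0.70) and quantile normalization (-0.42), and ran from -0.74 to -0.67 with 1 library left out. The difference between 11 and 6 DPA lost its call with a pseudocount of 0.1 (0.60), no filter (0.60) and median-ratio scaling (0.58), ran from 0.51 to 0.69 with 1 library left out, and grew with TPM (0.90) and quantile normalization (1.29). The difference between 16 and 11 DPA ran from -0.070 to 0.0034 with 1 library left out, turning sign without WT replicate 1 of 16 DPA, and from -0.31 to -0.01 over the other settings. That between 21 and 6 DPA became called with quantile normalization (0.86). The last step in wxe turned to -0.15 with quantile normalization and -0.038 with TPM, and that in WT fell to 0.21 and 0.28 under the same settings.

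Among neighbours in the order of levels, wxe at 16 DPA over WT at 11 DPA became called with quantile normalization (0.85), TPM (0.74) and TPM without 25 genes (0.69), wxe at 11 DPA over WT at 6 DPA lost its call with TPM (0.36), and WT at 16 DPA over wxe at 21 DPA became called with TPM (0.78) and TPM without 25 genes (0.68) and ran from 0.36 to 0.68 with 1 library left out. With TPM the starch and sucrose genes called higher were 2 at 6 DPA and 6 at 11 DPA. With 1 library left out, those called lower at 6 DPA were 4 to 7 (4 without wxe replicate 2 of 6 DPA), and those called higher 1 to 2 at 6 DPA, 1 to 3 at 11 DPA and 0 to 1 at 16 DPA. Relative to the 4 amylopectin genes, chosen after seeing the data, the deficits were -0.78, -1.08, -0.93 and -1.23 at the successive ages. A reference of 11 starch and sucrose genes, also chosen so, left out the sucrose transporter Sobic.001G488700, which was called lower at 11 DPA (-0.84). Relative to these 11 genes the deficits were -0.87, -1.11, -0.97 and -1.36. The cause of these changes was not tested.

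Same-numbered WT and wxe libraries deviated together with r of -0.28, 0.21, -0.01 and 0.11 at the successive ages, so the numbers were not taken as a pairing. A replicate block called the deficit at 16 DPA (-0.70, limma adjusted p = 0.0328) and changed no other SbGBSSI call. Absolute read depth is unknown, so counting error could not be separated from the spread between replicates.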
